A study of Sus scrofa with 9 samples.

Results

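Keratin genes were followed through the development of a deciduous molar of the lower jaw (Dm3) in the miniature pig (Sus scrofa). A member was any gene of the expression table whose symbol is KRT with a number and, in some cases, a letter, which left out keratin-associated proteins. This rule found 38 of the 34580 genes in the table, 20 of them type I, 17 type II and KRT222, which was not assigned to a type. RNA of whole tooth germs was sequenced at embryonic day 40 (E40), when the germ is at the cap stage, at day 50 (E50), the early bell, and at day 60 (E60), the late bell. Each stage has 3 libraries. All fetuses came by cesarean section from sows under ketamine and xylazine anaesthesia, and the labels name no difference between the groups other than stage. Each germ holds epithelium and mesenchyme together, and whether the libraries of a stage came from separate fetuses is not given, so the p-values measure only the spread between these libraries, which may be technical.

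Keratins are the intermediate filament proteins of epithelial cells. Each filament is built from equal amounts of an acidic type I and a basic type II chain, and epithelia are known by the pairs they make: KRT8 with KRT18 or KRT19 in simple epithelia, KRT5 with KRT14 or KRT15 in the basal layer of stratified epithelia, KRT4 with KRT13 in the upper layers of moist surfaces such as the mouth, KRT1 with KRT10 in cornifying skin, and a further series in hair and nail. In a tooth germ the enamel organ is the epithelial part. It grows from the oral epithelium through the dental lamina and later gives rise to the ameloblasts, which secrete enamel.

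The libraries differed widely in depth. The reads recovered from the values came to between 938527 and 1323530 in the 3 E40 libraries and between 14362235 and 16674750 in the 3 E50 libraries, while E60 had 16124836 in library 1 and 1380822 and 1760356 in libraries 2 and 3. The 4 libraries with over 5000000 reads are called deep below and the other 5 shallow, a split made from the data and not given by the labels. A single row, LOC102158401, held 22.3 to 30.3% of the recovered reads in 4 shallow libraries and 40.6% in E60 library 2, but at most 0.576% in the deep ones, and FPKM of all other genes are relative to a total that includes it. Over all genes tested, log2 values correlated at 0.959 to 0.983 between deep libraries, 0.743 to 0.838 between shallow ones and 0.301 to 0.609 across the split. All E40 libraries were shallow and all E50 libraries deep, so that depth and stage cannot be told apart between E40 and E50 except through E60, which had both. The E60 labels were checked with enamel genes: AMBN, which encodes the enamel matrix protein ameloblastin, was 2.77 to 6.48 FPKM at E40 and E50 and 2181 to 10410 FPKM at E60. AMEL and ENAM were likewise far higher at E60, while ODAM overlapped between stages and AMTN was highest at E50 (10.5 to 15.6 FPKM). AMBN does not tell the E40 and E50 labels apart. The epithelial marker EPCAM was present in all libraries (8.96 to 67.6 FPKM), while CDH1 was listed at 0 in all 9.

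Levels are given as FPKM, a read number divided by gene length and library size, so that levels of different genes can be set side by side. A gene was tested where it reached 1 FPKM in at least 2 libraries. By this filter 23 keratins were tested and 15 were not: KRT1, KRT2, KRT3, KRT31, KRT32, KRT33B, KRT34, KRT38, KRT75, KRT77, KRT78, KRT79, KRT82, KRT83 and KRT84. None of the 15 passed 1.39 FPKM or 16 reads in any library, and 13 of them never had more than 10 reads. KRT1, the type II partner of KRT10 in skin, and KRT3, the partner of KRT12 in cornea, were among them. KRT75, a keratin of the hair follicle that is also known from enamel, held at most 1.39 FPKM. In all, 12 members had a mean of at least 5 FPKM in some stage, and these are described library by library.

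**Figure D1:**
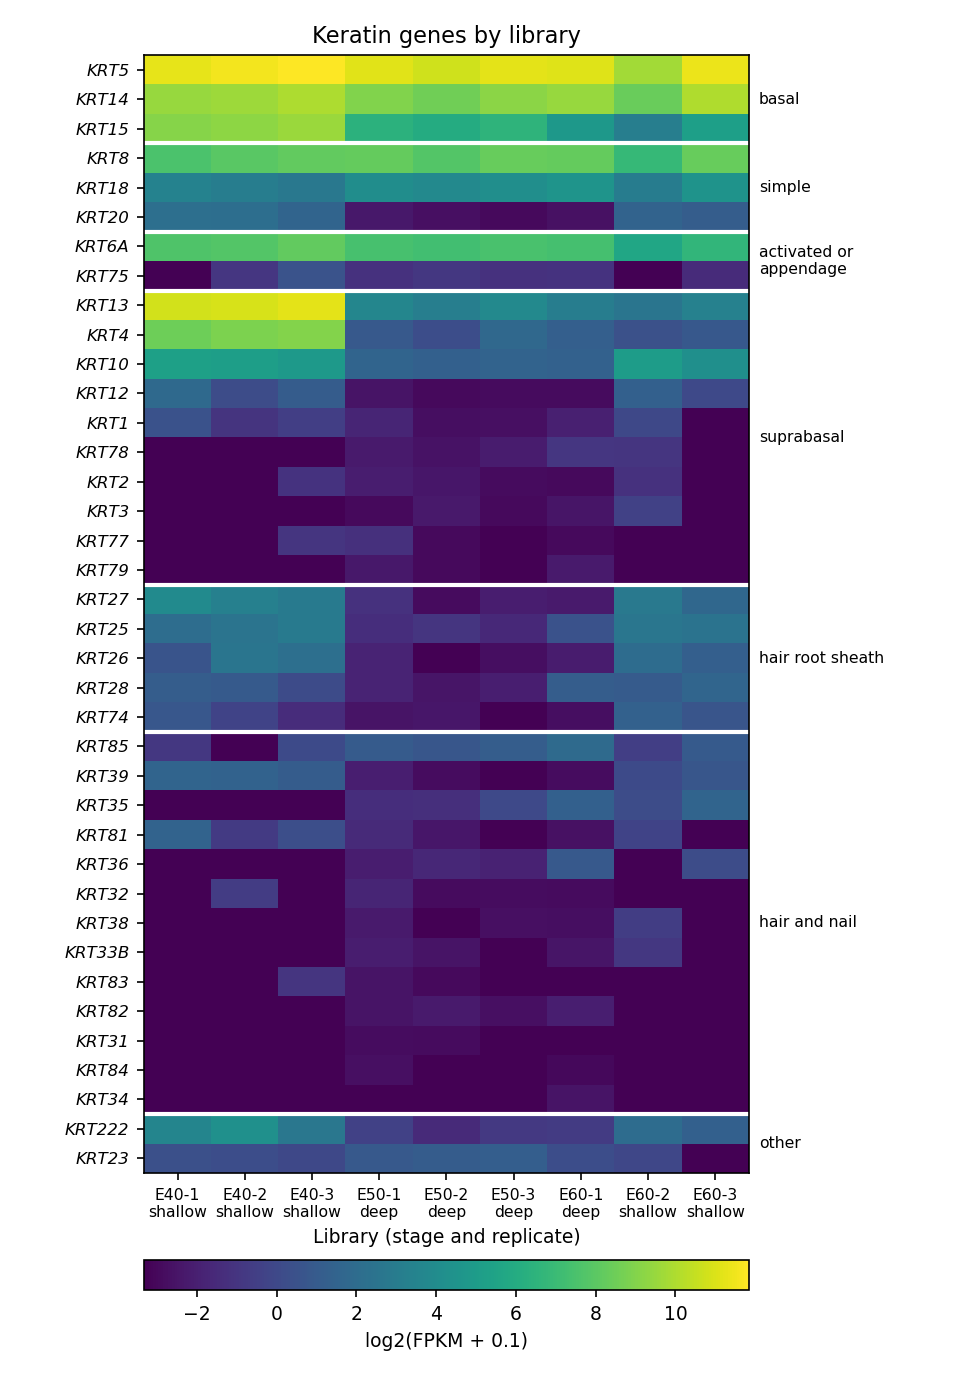
All 38 keratins (rows, grouped by the epithelium they are known from) in the 9 libraries (columns, stage and replicate, with deep and shallow libraries named); colour gives log2(FPKM + 0.1). KRT5, KRT14, KRT8 and KRT6A are bright in every column, KRT13 and KRT4 at E40 alone, and KRT10, KRT20, KRT27 and other low members are brighter in the 5 shallow columns than in the 4 deep ones.

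KRT5 was the most abundant keratin in all 9 libraries. At E40 the order of the stage means was KRT5 (3067 ± 568 FPKM, SD, n = 3), KRT13 (2010 ± 312), KRT14 (838 ± 146), KRT15 (638 ± 102), KRT4 (445 ± 86.3), KRT6A (242 ± 48.2) and KRT8 (241 ± 49.8), followed at a distance by KRT10 (34.5 ± 4.78). KRT6A and KRT8 lay within each other's spread, while KRT14 was above KRT15 in each E40 library. At E50 it was KRT5 (2129 ± 365), KRT14 (490 ± 113), KRT8 (280 ± 55.6), KRT6A (168 ± 15.1), KRT15 (80.4 ± 14.0), KRT18 (16.3 ± 1.96) and KRT13 (11.8 ± 2.61). The order of the first 5 was the same at E60, with KRT5 at 1892 ± 923, KRT14 at 700 ± 363, KRT8 at 244 ± 114, KRT6A at 107 ± 58.8 and KRT15 at 24.6 ± 14.6 FPKM. The large errors at E60 came with library 2, the lowest of the 3 for each of these genes and the one where LOC102158401 took the most reads, whose part in this was not tested.

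As shares of the summed keratin FPKM, which do not depend on the scaling between libraries, the makeup changed in a few members. The basal keratins KRT5, KRT14 and KRT15 made up 59.3 to 60.4% at E40, 84.2 to 84.9% at E50 and 82.7 to 88.2% at E60. Suprabasal keratins were 32.6 to 33.6% at E40, nearly all KRT13 and KRT4, then 0.503 to 0.565% at E50 and 0.411 to 3.13% at E60. The 3.13% was in E60 library 2, where KRT13 held 0.399% and KRT4 0.0864%. KRT10, described below, was the highest suprabasal keratin in that library, at 33.6 FPKM. Within the basal group, KRT14 held 10.8 to 11.2%, then 14.6 to 16.5%, then 20.8 to 24.9%, and KRT15 held 8.28 to 8.63%, then 2.52 to 2.54%, then 0.605 to 0.889%. Neither series overlapped between stages. The simple keratins KRT8, KRT18 and KRT20 were 3.18 to 3.53%, then 9.09 to 9.43%, then 8.10 to 9.43%. Shares are relative, so the lower KRT13 and KRT4 alone raise the shares of the others.

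**Figure D2:**
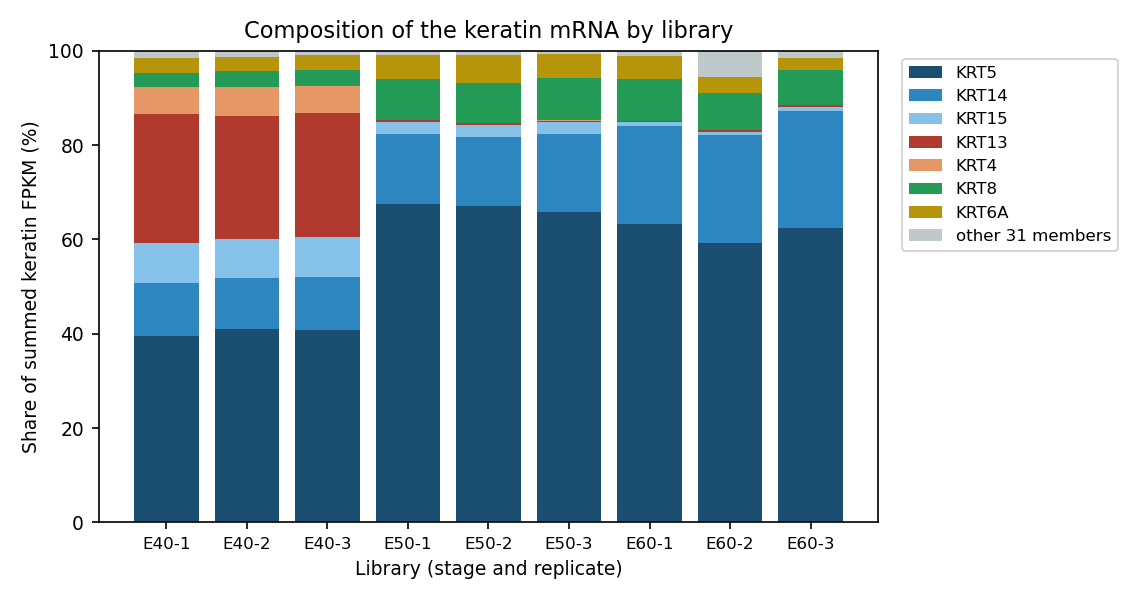
Share of the summed keratin FPKM (%) held by 7 keratins and by the other 31 members together in each of the 9 libraries. KRT13 takes 26.1 to 27.4% in the 3 E40 libraries and at most 0.399% in the other 6, and the share of KRT14 is highest at E60.

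The summed keratin FPKM was 6394, 7372 and 8952 in the E40 libraries, 3391, 2550 and 3625 at E50, and 3445, 1447 and 4229 at E60. No E50 or E60 library reached the lowest E40 value. The log2 difference was -1.25 from E40 to E50 (exact two-sided permutation test, p = 0.1, adjusted p = 0.15), -0.19 from E50 to E60 (exact p = 0.9) and -1.44 from E40 to E60 (exact p = 0.1, adjusted p = 0.15), where 0.1 is the smallest p that 3 libraries against 3 allow. Type II and type I chains were near balance at E40, with a ratio of their sums of 1.06 to 1.15, whereas it was 3.99 to 4.49 at E50 and 2.49 to 3.38 at E60. The ratio also separated by depth, at 3.38 to 4.49 in the deep libraries and 1.06 to 2.62 in the shallow ones. An abundant type I gene is not listed by its symbol, since the row LOC100515339 is KRT19 in RefSeq. With it and 3 other keratins listed in the same way, the ratio was 1.01 to 1.09 at E40, 2.57 to 2.87 at E50 and 1.99 to 2.38 at E60. Here too the deep libraries (2.38 to 2.87) lay above the shallow ones (1.01 to 2.07).

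From E40 to E50, over all 9 libraries, 12 of the 23 tested keratins passed the limits as lower and KRT35 as higher in limma, with limits of 0.05 on the adjusted p and 1 on the size of the log2 fold change. Of all 19618 genes tested, 38.6% passed in either direction, 21.8% as lower and 16.8% as higher (4284 and 3296 genes, against 4878 and 2392 after a median-ratio scaling of the libraries). The 12 were KRT13, KRT4, KRT10 and KRT12 of the suprabasal class, KRT25, KRT26, KRT27 and KRT28 of the hair root sheath, KRT15, KRT20, KRT39 and KRT222. Of the 23, 8 had passed the filter through shallow libraries alone, and all E40 libraries are shallow, so their lower level at E50 is partly set by the filter; these 8 gave 6 of the 12. With the library set as a term of the fit, which rests on the contrast within E60, 2 keratins passed, KRT13 and KRT4, against 0.255% of all genes. The same 2 were left when E40 library 1, E50 library 2 or E50 library 3 was omitted. In the fit with the library set as a term, the change from E40 to E60 is that from E40 to E60 libraries 2 and 3. The change from E50 to E60 is there that from E50 to E60 library 1 alone.

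From E50 to E60 no keratin passed in limma over 9 libraries, beside 0.0714% of all genes. An unadjusted p under 0.05 was found for 10 of the 23 keratins and for 30.2% of all genes. In limma-voom on the recovered reads 3 keratins passed, KRT28, KRT35 and KRT36, beside 1.6% of all genes. Without E60 library 1, 13 of the 22 keratins then tested passed and 59.1% of all genes did, which compares 3 deep with 2 shallow libraries. From E40 to E60 the keratins that passed were KRT13, KRT4 and KRT15 as lower and KRT35 as higher, 4 of 23 beside 1.8% of all genes (224 genes or 1.14% lower and 130 or 0.663% higher, against 317 and 403 after median-ratio scaling). With the library set as a term, or over the 8 libraries without E60 library 1, KRT6A joined them as lower. This made 5 of 23 beside 5.89% of all genes and 5 of 22 tested beside 6.06%. Both fits set E40 against E60 libraries 2 and 3, so their fold changes are the same and not separate results. KRT35 and KRT36 reached 1 FPKM at E60 alone, so their higher level there is partly set by the filter.

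The clearest change was in the mucosal pair. KRT13, the type I keratin of the upper layers of oral and oesophageal epithelium, stood at 1749, 1926 and 2356 FPKM at E40. It was 12.2, 8.96 and 14.1 FPKM at E50 and, at E60, 8.43, 5.77 and 10.1 FPKM. None of the later libraries came near those of E40, and in means KRT13 was 171-fold lower at E50 and 248-fold lower at E60. The log2 fold change was -7.42 (SE 0.34, limma adjusted p = 5.46e-05) from E40 to E50 and -7.96 (SE 0.34, adjusted p = 2.86e-05) from E40 to E60. With the library set as a term it was -7.56 (SE 0.51, adjusted p = 0.0024) and -8.01 (SE 0.32, adjusted p = 3.92e-05).

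KRT4, its type II partner, took the same course. It was 354, 454 and 526 FPKM at E40, 1.77, 1.09 and 3.34 FPKM at E50 and 2.36, 1.25 and 1.72 FPKM at E60. The means were 216-fold lower at E50 and 251-fold lower at E60. The log2 fold change was -7.80 (SE 0.46, limma adjusted p = 0.000124) from E40 to E50 and -7.91 (SE 0.46, adjusted p = 0.000109) from E40 to E60, and with the library set as a term -8.45 (SE 0.70, adjusted p = 0.00364) and -8.13 (SE 0.43, adjusted p = 5.85e-05). KRT4 held 770, 1105 and 1613 reads in the E40 libraries, 42 to 111 reads in the E50 libraries, which are 10.9 to 17.8 times deeper, and 4 and 7 reads in the shallow E60 libraries. Among the shallow libraries alone, the mean of E60 libraries 2 and 3 was 253-fold below E40 for KRT13 and 299.7-fold below it for KRT4. From E50 to E60 neither gene passed, at log2 -0.54 (SE 0.34) for KRT13 and -0.11 (SE 0.46) for KRT4.

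The proportion of the pair moved far less than its level. Within each library KRT4 was 0.202, 0.236 and 0.223 of KRT13 at E40, 0.145, 0.121 and 0.236 at E50 and 0.279, 0.217 and 0.170 at E60. The stages overlapped, and the log2 ratio differed by -0.38 from E40 to E50 (exact permutation test, p = 0.4) and by 0.05 from E40 to E60 (exact p = 0.9).

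In RNA of whole germs, fewer cells of a type and less RNA per cell cannot be told apart. Several other genes of the outer layers of stratified epithelium were highest in the same E40 libraries. Of 6 markers of cornified or oral mucosa, 4 were listed, and their sum was 45.8 to 65.6 FPKM at E40, 0.645 to 1.10 at E50 and 1.23 to 1.56 at E60. IVL, which encodes the envelope protein involucrin, was 23.1, 26.5 and 33.3 FPKM at E40 and at most 0.719 FPKM later. CRNN, which encodes cornulin of the upper oesophageal and oral layers, was 21.6, 24.8 and 31.8 FPKM at E40 and at most 0.909 FPKM later. LOR, a marker of cornified skin, was not highest at E40. It was at 0 in 2 of the 3 E40 libraries and at 0.603 FPKM in the other, against 1.23 FPKM (3 reads) in E60 library 2. Skeletal muscle markers were also highest at E40, with a sum of 38.6 to 57.4 FPKM against 3.36 to 9.59 FPKM later (4 of 6 listed, of which CKM and TNNT3 were at 0 in all libraries). Their part in the level of KRT4 and KRT13 was not tested.

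**Figure D3:**
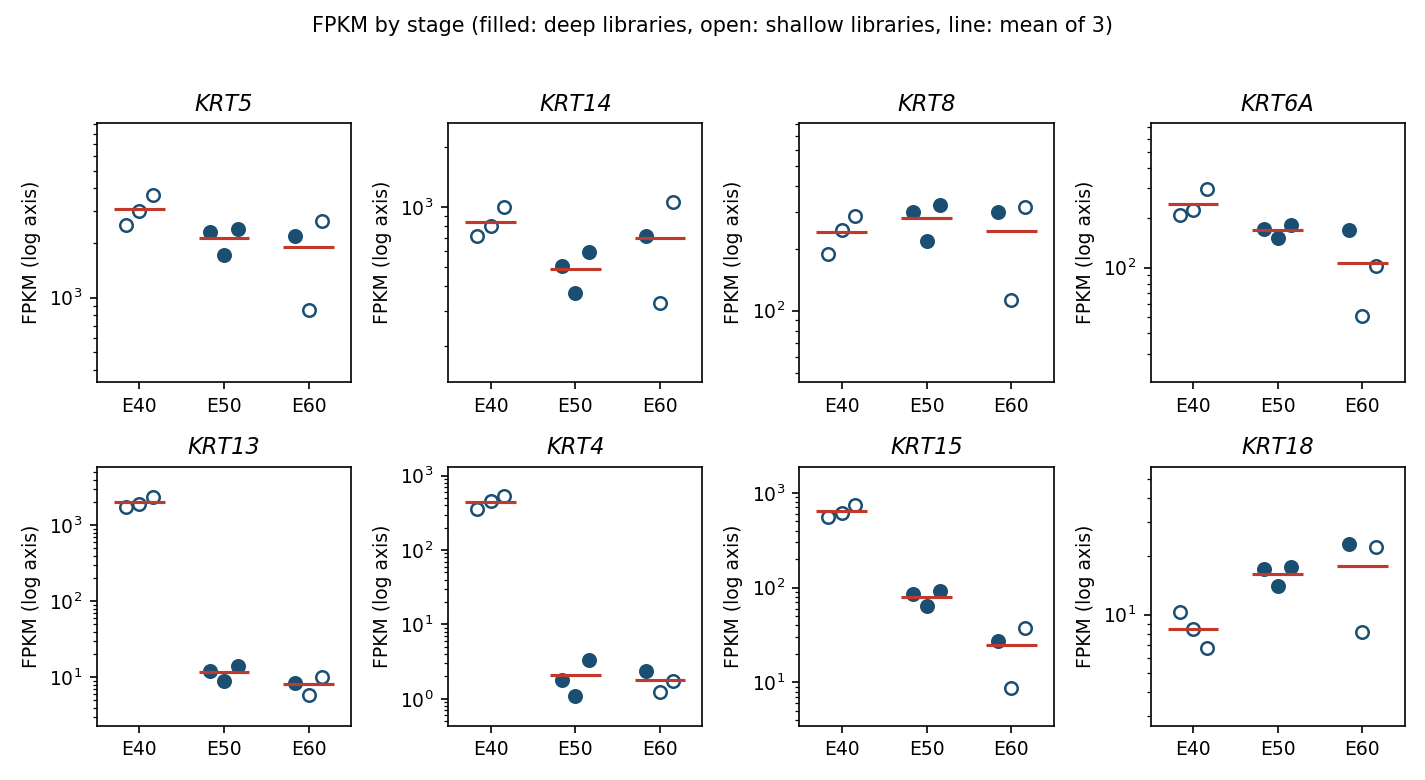
FPKM (log axis) of the 8 keratins described one by one, by stage; filled points are deep libraries, open points shallow ones, and the line is the mean of 3. KRT13 and KRT4 are far lower at E50 and E60 than at E40, KRT15 steps down at each stage, and KRT5, KRT14, KRT8 and KRT6A move far less, with KRT6A below its E40 values in all later libraries.

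The basal class held the largest share of keratin RNA. KRT5, the type II keratin of basal cells, was 2527, 3015 and 3660 FPKM at E40, 2290, 1712 and 2386 FPKM at E50, and 2181, 858 and 2635 FPKM at E60. KRT14, its main type I partner, was 715, 799 and 999 FPKM, then 503, 371 and 597 FPKM, then 715, 330 and 1055 FPKM. In both genes every E50 library lay below every E40 library, and E60 overlapped with both stages. Neither gene passed in any comparison over 9 libraries, with log2 fold changes from E40 to E50 of -0.53 (SE 0.58) for KRT5 and -0.78 (SE 0.50) for KRT14. After median-ratio scaling, which took the median change over all genes here from 0.55 to -0.09 in log2, KRT5, KRT14 and KRT6A passed as lower. KRT14 belongs with KRT16 and KRT17 to a group of very similar genes, neither of which the table lists by symbol, and how reads were assigned among such genes is not given in the sources used here.

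KRT15, a type I keratin of basal cells known as a marker of quiescent cells in the hair follicle bulge, was the basal member that changed. It was 552, 611 and 750 FPKM at E40, 85.4, 64.7 and 91.2 FPKM at E50 and 27.5, 8.76 and 37.6 FPKM at E60. Each stage lay below the one before it without overlap, by 7.93-fold and then 3.27-fold in the means. The log2 fold change was -2.99 (SE 0.51, limma adjusted p = 0.0123) from E40 to E50, -1.93 (SE 0.51, adjusted p = 0.164) from E50 to E60 and -4.91 (SE 0.51, adjusted p = 0.00279) from E40 to E60. With the library set as a term the E40 to E60 change was -5.11 (SE 0.53, adjusted p = 0.00231), while that from E40 to E50 was -3.58 (SE 0.86) and did not pass (adjusted p = 0.243). Without E60 library 1 the change from E50 to E60 was -2.12 (SE 0.54, limma adjusted p = 0.00871). That fit sets 3 deep libraries against 2 shallow ones, and 59.1% of all genes passed in it. The change was -1.53 with the library set as a term, which rests on E60 library 1 alone.

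The ratio of KRT5 to each type I partner within a library showed the same steps free of the scaling between libraries. KRT5 over KRT15 was 4.58, 4.94 and 4.88 at E40, 26.8, 26.5 and 26.2 at E50, and 79.3, 98.0 and 70.1 at E60. The libraries of a stage were close together, and the E60 libraries of either depth lay above all others. KRT5 over KRT14 was 3.54, 3.77 and 3.66, then 4.55, 4.61 and 4.0, then 3.05, 2.60 and 2.50, so that it was highest at E50 and lowest at E60 without overlap. The log2 ratio to KRT15 differed by 2.46 and 1.62 in the successive steps, and that to KRT14 by 0.26 and -0.69. Each of these 4 differences had the smallest p that the exact permutation test allows (p = 0.1), or 0.185 when adjusted over the 24 tests on 8 pairs.

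**Figure D4:**
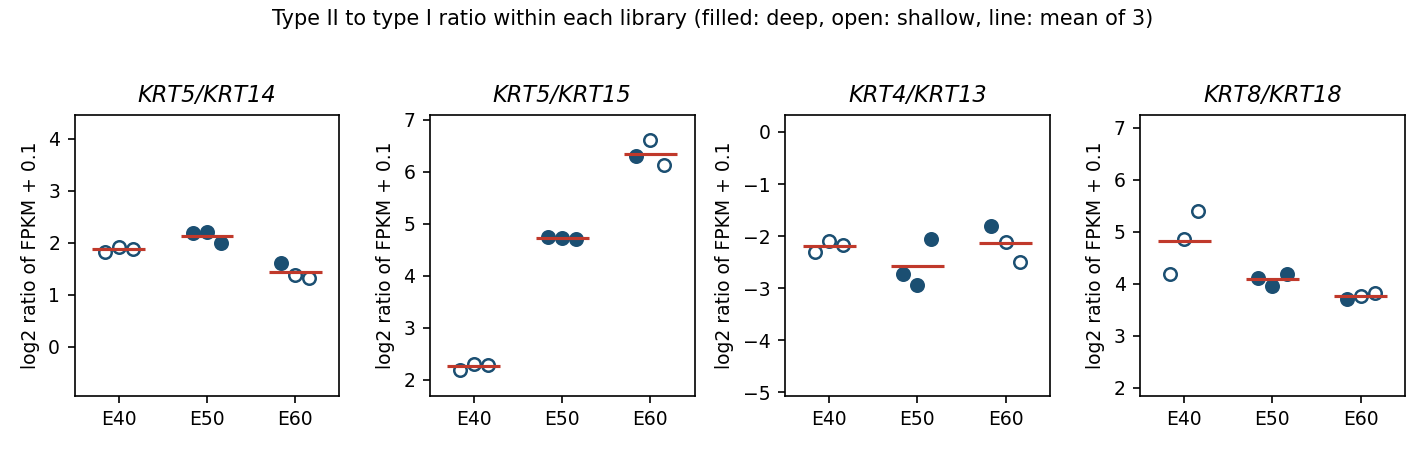
Ratio of a type II keratin to a type I partner within each library, as log2 of the ratio of FPKM + 0.1, by stage; filled points are deep libraries, open points shallow ones, and the line is the mean of 3. KRT5/KRT15 is 2.19 to 2.30 at E40 and 6.13 to 6.60 at E60, KRT5/KRT14 is lowest at E60, and KRT4/KRT13 overlaps between the stages.

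Keratins of simple epithelia were present at all stages. KRT8, the type II member, was 189, 247 and 288 FPKM at E40, 300, 218 and 324 FPKM at E50 and 302, 113 and 318 FPKM at E60. KRT18, its usual type I partner, was much lower, at 10.3, 8.43 and 6.70 FPKM, then 17.2, 14.0 and 17.6 FPKM, then 23.1, 8.17 and 22.4 FPKM. All E50 values of KRT18 lay above those of E40, but the log2 fold change of 0.95 (SE 0.45, limma adjusted p = 0.116) did not pass, and with the library set as a term it was 0.18 (SE 0.67). KRT8 differed by 0.22 (SE 0.47) from E40 to E50 and did not pass in any comparison.

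Within a library KRT8 was 18.3, 29.3 and 43.0 times KRT18 at E40, 17.5, 15.5 and 18.4 times at E50, and 13.0, 13.8 and 14.2 times at E60, where KRT18 rested on only 11 or 12 reads in each E40 library. The row that RefSeq names KRT19, the smallest type I keratin, stood much closer to KRT8. It was 216, 275 and 335 FPKM at E40, 375, 271 and 413 FPKM at E50 and 355, 107 and 330 FPKM at E60, and KRT8 was 0.785 to 1.05 times this row in all 9 libraries. This row was chosen for description after its values were seen. KRT7, another simple type II keratin, is listed under a LOC name and was at 0 in all libraries, and KRT20, known from intestine and urothelium, is described below.

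KRT6A, a type II keratin of the mouth and hair follicle that is induced in wounded skin, was 207, 223 and 297 FPKM at E40, 171, 152 and 181 FPKM at E50 and 168, 51.0 and 102 FPKM at E60. Every later library was below every E40 library. The log2 fold change from E40 to E60 was -1.32 (SE 0.45, limma adjusted p = 0.197), and -1.73 (SE 0.34, adjusted p = 0.0268) with the library set as a term. The fit without E60 library 1 gave the same -1.73 (SE 0.34, limma adjusted p = 0.0266), as both set E40 against the 2 shallow E60 libraries. From E50 to E60 the change was -0.81 (SE 0.45, adjusted p = 0.206) over 9 libraries. It passed at -1.22 (SE 0.34, adjusted p = 0.0145) without E60 library 1, where 3 deep libraries are set against 2 shallow ones, but it was 0.0057 with the library set as a term and -0.03 after median-ratio scaling. The value with the library set as a term rests on E60 library 1 alone, which was 1.0 times the E50 mean. A second row, LOC102164968, is also named KRT6A in RefSeq. It held 80.3, 94.5 and 104 FPKM at E40, 40.2, 32.9 and 44.5 FPKM at E50 and 58.3, 23.1 and 44.1 FPKM at E60, so that reads of near-identical copies may be split between both rows.

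KRT10, the type I keratin of cornifying layers, showed a different pattern from KRT13 and KRT4. Its FPKM were 38.4, 35.9 and 29.2 at E40, 2.90, 2.37 and 2.75 at E50, and 2.50, 33.6 and 18.5 at E60. Here E60 library 1 lay with E50 and E60 libraries 2 and 3 near E40, so the values followed depth and not stage. In reads it was nearly flat, with 84, 88 and 90 at E40, 99, 92 and 92 at E50 and 94, 108 and 76 at E60, although the deep libraries hold 8.16 to 17.8 times the reads of the shallow ones. The fold change from E40 to E50 passed over 9 libraries (log2 -3.64, SE 0.80, limma adjusted p = 0.0131) and was -0.37 (SE 0.49, adjusted p = 0.929) with the library set as a term. Without E60 library 1, KRT10 passed as higher from E50 to E60 (3.18, SE 0.30, adjusted p = 6.47e-05).

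In 9 of the 23 tested keratins every shallow library exceeded every deep library, but the filter favoured this pattern in genes that reached 1 FPKM in shallow libraries alone. That held for 7 of the 9, out of 8 keratins that passed in this way (59.0% of all such genes had the pattern), while of the other 15 tested keratins KRT10 and KRT25 had it (13.3%, against 8.68% of all such genes). The 9 were KRT10, KRT12, KRT20, KRT25, KRT26, KRT27, KRT39, KRT74 and KRT222, and apart from KRT10 none had more than 43 reads in a library. KRT27, a root sheath keratin, was 15.2, 9.46 and 7.52 FPKM at E40, 0.339, 0.0373 and 0.130 FPKM at E50 and 0.116, 6.76 and 3.18 FPKM at E60. KRT222, a keratin-like gene, was 11.8, 19.8 and 6.29 FPKM, then 0.663, 0.250 and 0.483 FPKM, then 0.516, 4.02 and 2.37 FPKM. The values of the E60 libraries fell on opposite sides in both genes, as in KRT10. Of the 12 keratins lower from E40 to E50 over 9 libraries, 6 changed by less than 1 on the log2 scale with the library set as a term: KRT10, KRT12, KRT20, KRT26, KRT27 and KRT39.

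For these members the log2 fold changes over 9 libraries and with the library set as a term stood far apart. That of KRT27 from E40 to E50 was -5.43 (SE 1.16, limma adjusted p = 0.013) and -0.97 (SE 0.99, adjusted p = 0.907). For KRT222 it was -4.42 (SE 0.78, adjusted p = 0.0123) and -2.05 (SE 0.92, adjusted p = 0.683). For KRT25 it was -3.76 (SE 0.65, adjusted p = 0.0123) and -1.73 (SE 0.63, adjusted p = 0.534). With E60 library 1 left out, all 3 passed as higher from E50 to E60, by 4.30 (SE 0.60) for KRT27, 2.57 (SE 0.56) for KRT222 and 3.81 (SE 0.39) for KRT25. These differences moved with the depth of the libraries, whose part in them was not tested beyond these fits.

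The same members share a place in the genome. In the gene order of RefSeq (Sscrofa11.1, used here for names and order only, as the table was made on Sscrofa10.2), the type I cluster runs from KRT19 and KRT15 through KRT36, KRT35 and the other hair keratins to KRT39, KRT23, KRT20, KRT12, KRT10, KRT28, KRT27, KRT26, KRT25, KRT24 and KRT222. Of the 9 neighbouring genes from KRT20 to KRT222, 8 had every shallow library above every deep one, counting KRT24 under its LOC row, and KRT28 was the exception. Of the other 25 listed genes of both keratin clusters 2 did so, KRT39 and KRT74. This stretch was picked after the values were seen, and it carries no test.

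**Figure D5:**
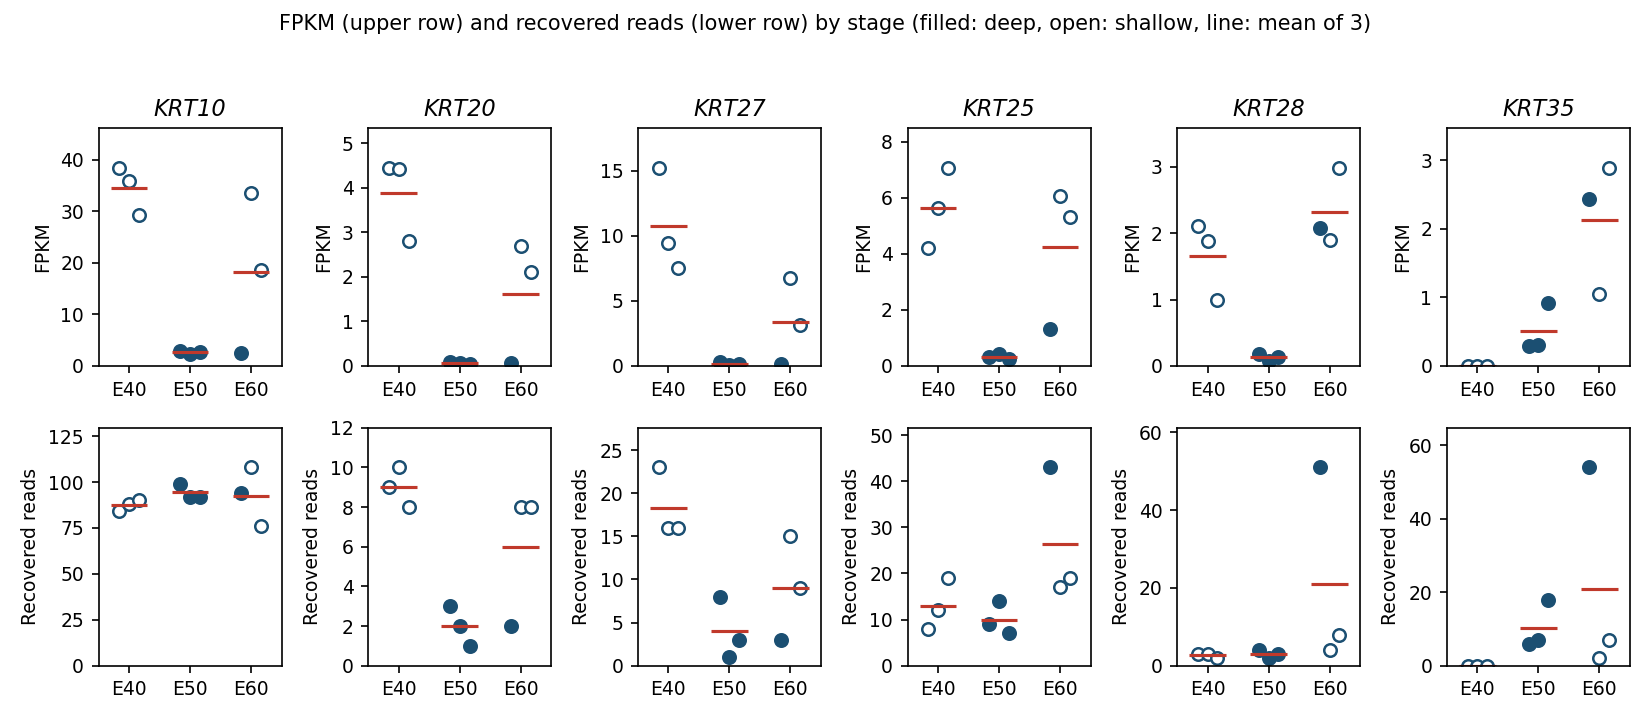
FPKM (upper row) and recovered reads (lower row) of 6 low keratins by stage; filled points are deep libraries, open points shallow ones, and the line is the mean of 3. In KRT10, KRT20 and KRT27 the shallow libraries are high in FPKM while the reads of KRT10 are level at 76 to 108, and in KRT25, KRT28 and KRT35 E60 library 1 has the most reads of all.

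The hair keratins were low throughout, but several root sheath and hair members had their most reads in E60 library 1. This was not so in KRT26, KRT27, KRT39, KRT74 and KRT81, the other tested members of these classes. Against the E50 mean, E60 library 1 was 0.685 times in KRT27, 0.703 in KRT39, 0.837 in KRT74, 0.566 in KRT81 and 1.63 in KRT26. These rest on at most 8 reads in any deep library. KRT25, which forms filaments in the inner root sheath, was 4.20, 5.62 and 7.07 FPKM at E40, 0.303, 0.414 and 0.240 FPKM at E50 and 1.31, 6.07 and 5.32 FPKM at E60, so that among the deep libraries E60 was 4.12 times the E50 mean. KRT28, another inner root sheath keratin, held 4, 2 and 3 reads at E50 and 51 reads in E60 library 1, or 0.0788 to 0.179 against 2.08 FPKM. Its fold change from E50 to E60 was 3.38 on the log2 scale (SE 0.59, limma adjusted p = 0.13). It was 3.26 with the library set as a term, which rests on E60 library 1 alone. After median-ratio scaling it passed as higher, the 1 keratin to do so in this comparison. KRT28, KRT35, KRT36 and KRT85 lie below the mean of 5 FPKM set for a description by library and were chosen after their values were seen.

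KRT35, a type I keratin of the hair matrix and early cortex, was without reads at E40, with 6, 7 and 18 reads at E50 and 54, 2 and 7 at E60. In FPKM it was 0.298, 0.305 and 0.911 at E50 and 2.43, 1.05 and 2.89 at E60. It passed the filter through E60 alone, so its higher level there is partly set by the filter. A count of 0 over the 3 E40 libraries together allows up to 0.658 FPKM (3 reads in all, counting error only). The E50 mean of 0.505 FPKM lies below this limit, so that a difference between E40 and E50 was not detectable at this depth, although KRT35 passed as higher in limma (adjusted p = 0.0315). All 3 E60 values lie above it, and the E60 mean was 3.23 times this limit (limma adjusted p = 0.0232). That mean rests in part on the 2 and 7 reads of the shallow E60 libraries. In E60 library 2 a count of 3 reads would be 1.58 FPKM, above the value found there. With limma-voom on the reads KRT35 passed in neither comparison. From E40 to E60 it also failed with the replicate number as a block and in the fit of these stages alone. The same was so when E60 library 3 or any single E40 or E50 library was left out. Among the deep libraries, where it can be measured, E60 library 1 was 4.82 times the E50 mean, a value without replicate.

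KRT36, the neighbour of KRT35, had 3, 6 and 4 reads at E50 and 45, 0 and 3 reads at E60, and was without reads at E40. KRT85, the type II partner of KRT35 in hair, had 1, 0 and 3 reads at E40, 69, 63 and 73 reads at E50 and 141, 2 and 8 reads at E60. Neither passed over 9 libraries in any comparison. Within the libraries KRT85 was 6.58, 5.15 and 2.32 times KRT35 at E50 and 1.49, 0.572 and 0.654 times at E60, a log2 difference of -2.10 (exact permutation test, p = 0.1, adjusted p = 0.185). The remaining members above the filter were KRT81, a hair keratin with at most 2.71 FPKM, and KRT23, known from some simple epithelia, with at most 2.25 FPKM.

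Genes that work with keratins were followed from fixed lists. Of 7 tested linker genes that tie filaments to cell junctions, EVPL (envoplakin) and PPL (periplakin), which join the cornified envelope, passed as lower from E40 to E50, beside 21.8% of all genes. With the library set as a term neither passed in this comparison (adjusted p = 0.289 and 0.587). From E40 to E60 both passed as lower in that fit, beside 4.48% of all genes. EVPL was 11.1, 11.1 and 14.5 FPKM at E40 and 1.80 to 4.02 FPKM later, with a log2 fold change from E40 to E60 of -2.26 (SE 0.41, limma adjusted p = 0.0276). It was the only linker lower in that comparison over 9 libraries, beside 1.14% of all genes. DSP, which encodes the desmosomal protein desmoplakin, was 41.9 to 64.5 FPKM at E40, 60.0 to 74.5 FPKM at E50 and 17.8 to 60.7 FPKM at E60, and did not pass. The median log2 fold change of the 7 from E40 to E50 was 0.07, beside 0.55 for all genes.

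Among 5 tested genes of the cornified envelope, 4 passed as lower from E40 to E50 and again from E40 to E60: CDSN, CRNN, IVL and SPRR1A. Of all genes 21.8% and 1.14% were lower in these comparisons. CDSN, CRNN and IVL reached 1 FPKM at E40 alone, so their lower level later is partly set by the filter. LOR and FLG, also on the list, were below the filter. SPRR1A, a small proline-rich envelope protein, was 20.9, 29.1 and 56.4 FPKM at E40 and at most 1.37 FPKM later. The median log2 fold change of the 5 was -5.35 from E40 to E50, against 0.55 for all genes. With the library set as a term IVL and SPRR1A passed from E40 to E50 and all 5, TGM1 included, from E40 to E60, beside 0.194% and 4.48% of all genes as lower. IVL and CRNN are also on the list of mucosal markers above, so both lists rest in part on the same genes.

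Of 9 tested regulators of keratin genes, EHF, an ETS factor of epithelial differentiation, and TFAP2A, an AP-2 factor of ectoderm, passed as lower from E40 to E50, a share near that of all genes (21.8%). EHF was 2.35, 5.09 and 4.76 FPKM at E40 and at most 0.838 FPKM later, and TFAP2A was 24.4, 17.7 and 17.8 FPKM at E40 and 2.61 to 6.68 FPKM later. EHF passed the filter through E40 alone, so its lower level later is partly set by the filter. TP63, the regulator of stratified epithelia that acts on KRT5 and KRT14, was 15.2 to 20.5 FPKM at E40, 20.1 to 21.8 FPKM at E50 and 15.3 to 38.0 FPKM at E60, and did not pass. Neither EHF nor TFAP2A passed from E40 to E50 with the library set as a term (adjusted p = 0.538 and 0.694), and both did from E40 to E60 (adjusted p = 0.0132 and 0.0186).

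Of 10 tested intermediate filament genes other than keratins, only DES, the filament of muscle, passed as lower from E40 to E50, fewer than the 21.8% of all genes. It was 11.9, 14.0 and 20.2 FPKM at E40 and at most 3.50 FPKM later, and with the library set as a term it did not pass from E40 to E50 (adjusted p = 0.217) but did from E40 to E60 (adjusted p = 0.00482). VIM, the filament of mesenchyme, was 876 to 1290 FPKM at E40, 2397 to 2753 FPKM at E50 and 560 to 1927 FPKM at E60, and did not pass (E40 to E50, log2 1.31, SE 0.55, limma adjusted p = 0.0827). Within the libraries KRT5 was 2.84 to 3.0 times VIM at E40, 0.714 to 0.873 times at E50 and 1.13 to 2.17 times at E60, without overlap between stages. This ratio also separated by depth, at 0.714 to 1.13 in the deep libraries and 1.53 to 3.0 in the shallow ones. The 7 tested epithelial markers summed, with those below the filter, to 123 to 198 FPKM at E40, 289 to 359 FPKM at E50 and 73.2 to 357 FPKM at E60, and EPCAM differed by 1.82 on the log2 scale from E40 to E50 (SE 0.66, limma adjusted p = 0.0529). EPCAM was 10.9 to 22.5 FPKM at E40, 8.96 and 18.6 FPKM in the shallow E60 libraries and 67.6 FPKM in E60 library 1. The median log2 fold change of the 7 from E40 to E50 was 1.06, beside 0.55 for all genes. With the library set as a term these medians were -0.76 and -0.36.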

How the data were processed

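The authors sequenced ribosomal-RNA-depleted total RNA of Dm3 germs as directional paired-end libraries, aligned the reads with TopHat v2.0.9 and deposited FPKM for 34580 genes in 9 libraries. The submitters' processing notes name the build Sscrofa10.2, and no scaling between libraries beyond FPKM is stated. FPKM rise in steps of 1 read, so whole reads were recovered for 28963 of 28963 genes above 0, within 0.02 of a whole number. The smallest number of reads that fits was taken, so a gene above 0 in only 1 library always counted as 1 read. This full share therefore does not measure correct recovery. In simulated tables of 5862 genes, 95.3% came back without an error in any library.

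Genes that reached 1 FPKM in 2 or more libraries entered a limma 3.58.1 fit (R 4.3.3, mean-variance trend) of log2(FPKM + 0.1) with a coefficient per stage over all 9 libraries and Benjamini-Hochberg adjustment over 19618 genes. Fold changes are on this scale, which understates those of low genes. A gene passed where its adjusted p was under 0.05 and it changed by 1 or more in log2. On simulated data for E40 to E50, 161 of 200 genes changed by 2 on the log2 scale passed, and 24 unchanged genes of 18630 in all. The simulation kept the real depths but gave each unchanged gene the same mean in all libraries. It therefore cannot show how many calls come from other differences between deep and shallow libraries. The changed genes were drawn only from those above a limit of expected reads in the shallowest library. Sums and within-library ratios were compared with exact two-sided permutation tests. Alternatives were other pseudocounts, no filter, median-ratio scaling, a replicate block, the library set as a term, fits of the compared stages, limma-voom from reads with median-ratio library sizes, and each library left out in turn. Keratins whose mean reached 5 FPKM in some stage are given library by library. The members and gene lists were chosen with earlier results of these data known. Tables and exact tests were made in Python 3.11.15 (scipy 1.17.1, numpy 2.4.6, pandas 2.3.3) and plots with matplotlib 3.10.9. RefSeq symbols matched 30 of the 38 members. Intervals and limits cover counting error only.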

Additional observations from a re-analysis of the deposited data

How the results depend on the processing

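The number of keratins that passed from E40 to E50 (13 over 9 libraries) was 2 with the library set as a term, with or without median-ratio scaling, and 2 to 16 when a library was left out. From E50 to E60 (0) it was 1 with scaling, 3 with limma-voom and 13 without E60 library 1 after scaling (0 to 13 on leaving out a library). From E40 to E60 (4) it was 2 in the fit of these stages alone and 10 with limma-voom (3 to 6 on leaving out a library). Over all genes, E40 to E50 gave 7580, against 50 with the library set as a term and 46 with that and scaling (58 to 10650 on leaving out a library). E50 to E60 gave 14, against 27 with a pseudocount of 1, 81 with scaling, 4 with the replicate block, 38 with the library set and scaling, 6 in the fit of these stages alone, 314 with limma-voom and 7448 without E60 library 1 after scaling (4 to 11529). E40 to E60 gave 354, against 221 and 696 with pseudocounts of 0.01 and 1, 720 with scaling, 82 with the replicate block, 1155 with the library set, 961 with that and scaling, 27 in the fit of these stages alone, 3815 with limma-voom and 955 without E60 library 1 after scaling (128 to 1181). The summed keratin FPKM from E50 to E60 turned from -0.19 to 0.59 with scaling (-0.50 to 0.28 on leaving out a library). Ratios that turned were KRT1/KRT10 from E40 to E60 (-1.04 with a pseudocount of 0.01, and -0.86 to 1.22 on leaving out a library), KRT4/KRT13 (0.078 from E40 to E50 with a pseudocount of 1, -0.0097 from E40 to E60 with 0.01, and -0.12 to 0.23 on leaving out a library) and KRT85/KRT35 from E40 to E50 (0.46 with a pseudocount of 1, and -1.06 to 0.63). From E50 to E60, KRT6A turned to 0.0057 with the library set, 0.13 with that and scaling and 0.0055 with limma-voom, KRT10 to -0.087, and KRT27 to -0.16 and -0.088. None of these had passed over 9 libraries, and the causes were not tested.

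Libraries of the same number were not paired, as their deviations from the stage means correlated at -0.515 to 0.109 in 9 pairs. With the replicate number as a block, 11, 0 and 3 keratins passed in the 3 comparisons in turn. Depth limits the members with few reads: in the shallow libraries 1 read of a gene of 1 kb is worth 0.568 to 1.07 FPKM, so that KRT35 at its E50 level cannot be told from 0 at E40. The KRT4 and KRT13 calls from E40 to E50 and E40 to E60 held in each alternative run.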
